A study of Mus musculus with 12 samples.

Results

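Bdh1, Oxct1, Acat1 and Slc16a1 are the genes by which a mouse heart takes up ketone bodies and turns them into acetyl-CoA. They were the genes of the deposited count table with these 4 symbols, 1 Ensembl gene each, out of 40594 genes in all, and all 4 were among the 15494 genes with enough reads to be tested. RNA-seq had been done on total RNA from the ventricles of adult mouse hearts, in 4 groups of 3 libraries: right ventricle (RV) of WntLOF hearts, right ventricle of control hearts, left ventricle (LV) of WntLOF hearts and left ventricle of control hearts. The labels give the genotypes only as wnt lof and control. They name no allele, Cre driver, targeted gene or treatment, and they do not tie libraries to animals. A p-value here therefore measures the spread between libraries, part of which may be technical.

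Ketone bodies are made in the liver, mainly in fasting, and the heart burns them readily. The carrier MCT1 (Slc16a1) moves β-hydroxybutyrate and acetoacetate, as well as lactate and pyruvate, across the plasma membrane. In the mitochondria β-hydroxybutyrate dehydrogenase (Bdh1) oxidises β-hydroxybutyrate to acetoacetate. Succinyl-CoA:3-oxoacid CoA-transferase (Oxct1) then transfers CoA from succinyl-CoA to acetoacetate, the step that commits it to oxidation, and acetoacetyl-CoA thiolase (Acat1) splits the product into acetyl-CoA for the citrate cycle. Acat1 also closes the breakdown of isoleucine. Canonical Wnt signalling acts on transcription through β-catenin, which is carried to DNA by the TCF/LEF factors.

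The sequences just before the gene starts are shown for Bdh1, which varied most between libraries, and for Slc16a1, the member with the smallest unadjusted p between genotypes. They are the 250 bases before the annotated start, on the plus strand, from RefSeq on GRCm38.p6, where 3 of the 4 members (Bdh1, Oxct1 and Slc16a1) had an entry. Capitals mark a motif found on either strand.
Bdh1, start 1, chr16:31422047-31422296: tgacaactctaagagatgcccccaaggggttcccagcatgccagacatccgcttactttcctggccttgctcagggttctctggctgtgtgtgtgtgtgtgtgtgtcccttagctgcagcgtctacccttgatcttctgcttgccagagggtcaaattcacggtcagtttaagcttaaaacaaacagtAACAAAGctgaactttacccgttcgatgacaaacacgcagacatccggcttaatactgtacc
Bdh1, start 2, chr16:31428503-31428752: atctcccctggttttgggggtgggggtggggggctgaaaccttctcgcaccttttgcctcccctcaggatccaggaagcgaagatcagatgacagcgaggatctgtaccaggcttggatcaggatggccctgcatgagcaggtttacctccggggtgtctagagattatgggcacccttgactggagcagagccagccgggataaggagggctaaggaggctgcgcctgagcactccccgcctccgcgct
Slc16a1, chr3:104638414-104638663: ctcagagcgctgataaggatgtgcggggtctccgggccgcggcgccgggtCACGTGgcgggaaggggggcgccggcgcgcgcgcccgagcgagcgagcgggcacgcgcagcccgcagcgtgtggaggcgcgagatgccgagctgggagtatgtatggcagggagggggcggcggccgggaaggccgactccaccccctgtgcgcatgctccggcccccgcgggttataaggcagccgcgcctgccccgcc
In Bdh1 start 1 the capitals are AACAAAG, the TCF/LEF core CTTTGTT read on the minus strand, at positions -62 to -56 counted from the start. Slc16a1 held the E-box CACGTG at -200 to -195, and the Oxct1 sequence (not shown) held the TCF/LEF core CTTTGTA at -140 to -134. Of 32851 mouse promoters of the same length, 14.8% held the TCF/LEF core searched (CTTTG, then A or T, then A or T) and 6.02% held CACGTG, on either strand. The nuclear receptor half-site AGGTCA, in 14.0% of promoters, was in none of the 4 sequences searched, and the second Bdh1 start held none of these motifs. The Slc16a1 sequence was 76.4% G or C, against 49.6% and 60.8% at the 2 Bdh1 starts and 52.0% at Oxct1. A match describes these letters only.

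Read totals ran from 13274922 to 19173391 per library, and levels are given as CPM, read counts scaled to the size of each library with TMM factors. Some libraries stood apart from their labels. Wif1, a secreted Wnt inhibitor whose level differed between the ventricles of control hearts, had 11.98, 12.2 and 18.4 CPM in control RV and 2.62, 2.69 and 3.17 CPM in control LV. The library labelled WntLOF RV 1 held 2.55 CPM, against 14.2 and 13.2 CPM in WntLOF RV 2 and 3, and the library labelled WntLOF LV 1 held 13.5 CPM, against 1.64 and 1.62 CPM in WntLOF LV 2 and 3. So these libraries go against their ventricle labels for this gene, and fitted values of the members and medians of the companion gene lists that rest on them are also given without both. Levels, overlaps and correlations are of all 12 libraries as labelled. The libraries labelled WntLOF RV 1 and control LV 2 were also closer to each other than any other pair of libraries, with a chi-square per gene of 2.86, where 1 would be sampling noise, against 9.34 to 46.5 in the other 65 pairs. WntLOF RV 3 held 10.2 CPM of the atrial light chain Myl7, against at most 1.26 CPM in any other library. Library number 3 of every group held 102 to 136 CPM of the Y-linked Ddx3y, against at most 0.771 CPM in the others. The 3 libraries of a group were therefore not all from the same animal. Ctnnb1, which encodes β-catenin, had 352 to 453 CPM in WntLOF RV against 510 to 559 CPM in control RV, and 395 to 532 CPM in WntLOF LV against 425 to 598 CPM in control LV. The summed cardiomyocyte markers (Myh6, Actc1, Tnnt2, Tnni3, Myl2 and Ryr2) were high in every library, at 59188 to 67587 CPM.

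The 4 genes differed widely in level and in how steady they were. Per kilobase of exon, Oxct1 averaged 378 CPM per kb over the 12 libraries (332 to 445), Acat1 178 (147 to 206), Slc16a1 102 (90.1 to 112) and Bdh1 28.5 (9.62 to 55.5), so that the ranges of the 4 genes did not overlap. The coefficient of variation of the CPM over the 12 libraries was 52.5% for Bdh1, against 9.16% for Oxct1, 8.41% for Acat1 and 7.86% for Slc16a1. The median over all tested genes was 13.9%, and 97.3% of them varied less than Bdh1. Bdh1, the enzyme that feeds β-hydroxybutyrate into the pathway, was thus both the lowest and the most variable of the 4 transcripts, with a 5.77-fold span between its lowest and highest library, against 1.34-fold for Oxct1.

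**Figure D1:**
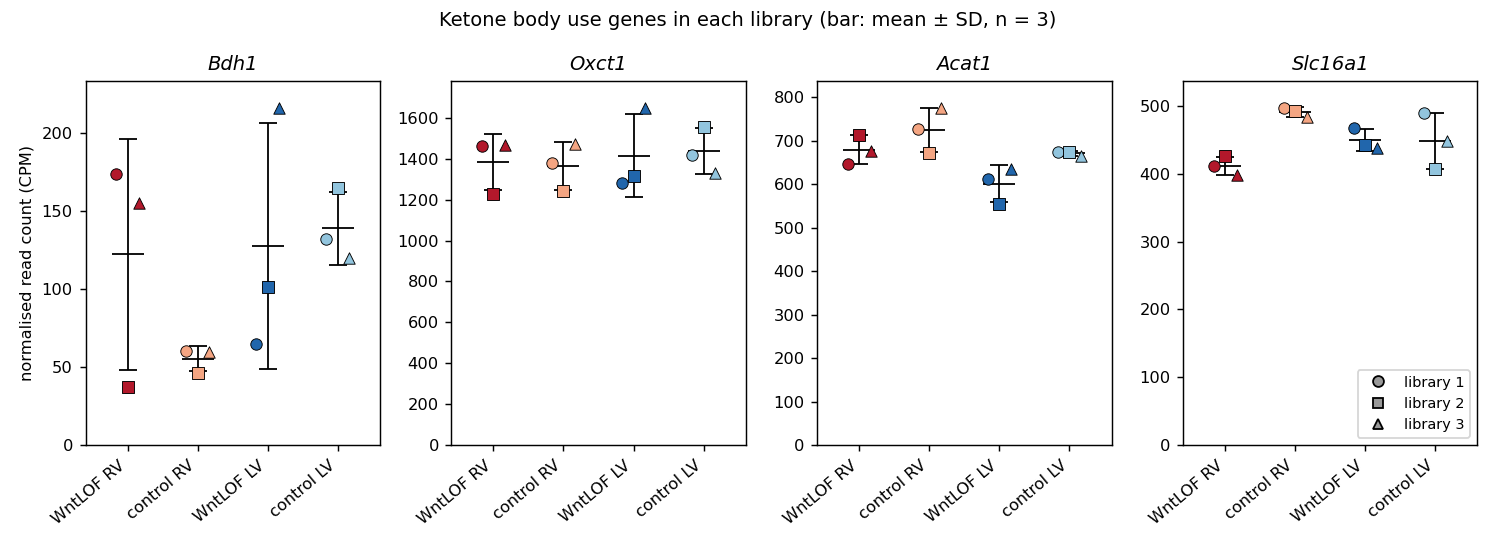
Normalised read counts (CPM, linear axes starting at 0) of the 4 genes in each library, by group, with the mean and SD of 3 libraries as bars and the library number as the symbol. Bdh1 ran from 37.4 to 216 CPM with its WntLOF libraries spread over most of that range, while Oxct1, Acat1 and Slc16a1 stayed within 1.40-fold.

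None of the 4 genes passed the planned test in any comparison. With 1 mean per group over all 12 libraries, edgeR's quasi-likelihood test with Benjamini-Hochberg adjustment called 0 of 4 members, and 0% of the 15494 genes, in each of 6 comparisons: WntLOF against control in each ventricle, RV against LV in each genotype, RV against LV averaged over both genotypes, and the interaction. At an unadjusted p under 0.05, edgeR passed 1 of 4 members in 4 of the comparisons: Slc16a1 in WntLOF RV against control RV, where 2.7% of all genes passed, Bdh1 in control RV against control LV (4.89%), Acat1 in the averaged RV against LV (8.29%) and Slc16a1 in the interaction (2.01%). It passed 0 members in WntLOF LV against control LV, where 2.85% of all genes passed, and in WntLOF RV against WntLOF LV (4.81%). DESeq2 called 0 genes in 5 of the comparisons and 11 genes in the averaged RV against LV, none of them a member.

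**Figure D2:**
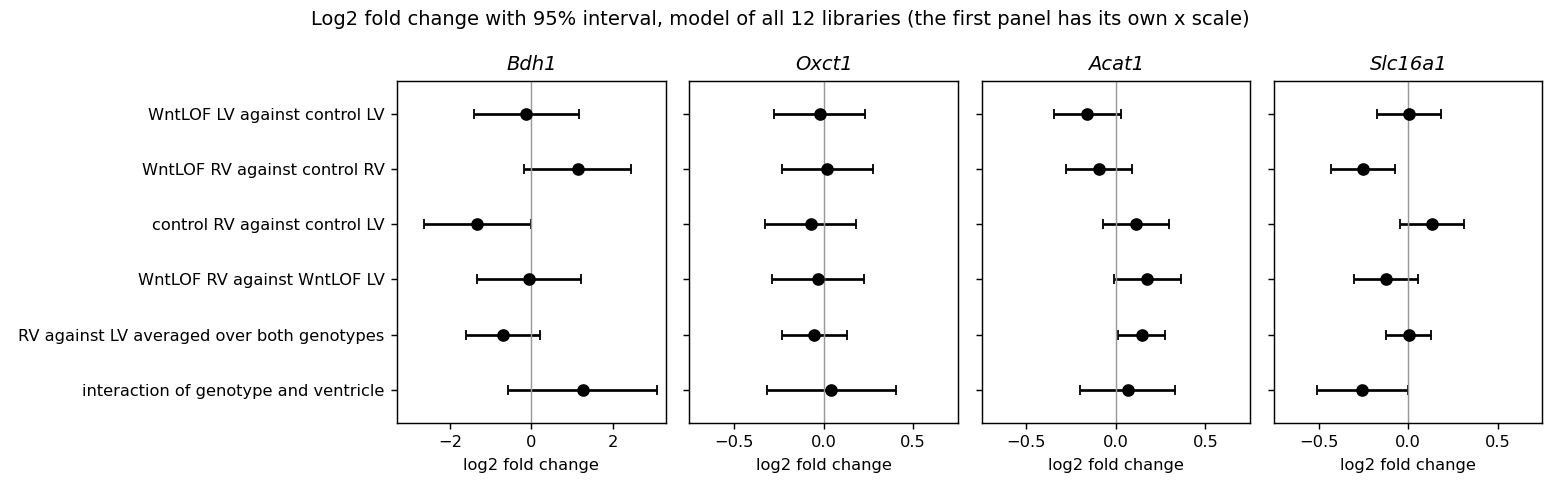
Log2 fold change of each gene in the 6 comparisons (points) with its 95% interval (bars), first group over second. Bdh1 has an axis of its own, since its intervals run as far as -2.64 and 3.10, while every interval of the other 3 genes lies between -0.51 and 0.40.

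Bdh1 was lower in the right than in the left ventricle in each same-numbered pair of control libraries. It had 60.3, 46.2 and 59.6 CPM in control RV libraries 1, 2 and 3, against 132, 165 and 120 CPM in control LV. The groups did not overlap: each control RV library had a lower Bdh1 level than each control LV library. Of all tested genes, 5.92% were lower without overlap in this comparison and 6.68% higher. The means were 55.4 ± 7.96 CPM in control RV and 139 ± 23.4 CPM in control LV (SD, n = 3 each). Within a pair of libraries of the same number, RV over LV was 0.457, 0.280 and 0.499. Set against another gene of the pathway in the same library, there were 4.37, 3.72 and 4.04 Bdh1 reads per 100 Oxct1 reads in control RV, against 9.28, 10.6 and 8.97 in control LV. This restates the difference in the same Bdh1 reads, since Oxct1 differed little here (log2 fold change -0.073, SE 0.12).

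The direction of this difference was the same in every setting tried, and its call changed with the libraries in the fit and with the library number as a block. The log2 fold change of Bdh1 in control RV against control LV was -1.33 (SE 0.58, 95% interval -2.64 to -0.0077), and 0.174% of tested genes lay further below 0. With edgeR's quasi-likelihood model of all 12 libraries its adjusted p was 0.922, in a model whose spread for Bdh1 includes the wide WntLOF groups. With the 6 control libraries alone edgeR gave -1.33 (SE 0.14) with an adjusted p of 0.0244, and called 9 of 14899 genes (0.0604%), 3 of them lower in RV (0.0201%). With the library number as a block as well, edgeR gave an adjusted p of 0.0814 for Bdh1 at -1.32 (SE 0.19), while 326 genes were called (2.19%), 183 of them lower in RV (1.23%). Without the doubted library control LV 2, the control libraries alone gave -1.18 (SE 0.13) and an adjusted edgeR p of 0.0552, with 1 gene called. Without both control libraries numbered 2 and with the block, edgeR gave -1.07 (SE 0.071) and an adjusted p of 0.00101. That fit called 67 of 14992 genes (0.447%). It rests on control pairs 1 and 3 only, whose RV over LV was 0.457 and 0.499. Pair 2, at 0.280, was left out, although control RV 2 was not a doubted library. The small SE therefore measures how close 2 pairs were. Neither this fit nor the one before it was planned, and both were chosen with these values already known. Over the 26 other settings the log2 fold change of Bdh1 lay between -1.42 and -1.07. Bdh1 was called in 2 of them, with the control libraries alone and in the unplanned fit without control pair 2.

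The sums of 3 of 9 cell type marker lists did not overlap between the control ventricles, though no marker passed the adjusted threshold. The summed endothelial markers (Pecam1, Cdh5, Kdr, Tie1 and Egfl7) had 792 to 859 CPM in control RV against 905 to 996 CPM in control LV, with 5 of 5 below 0 on the log2 scale. The erythroid sum (Hbb-bs, Hbb-bt, Hba-a1, Hba-a2 and Alas2) had 164 to 247 CPM in control RV against 110 to 138 CPM in control LV, and the adipocyte sum (Adipoq, Plin1 and Cfd) at most 1.06 CPM in control RV against at least 1.51 CPM in control LV, with Adipoq and Plin1 too low to be tested. The groups overlapped for the other 6 of 9 marker lists, which were cardiomyocyte, atrial, fibroblast, smooth muscle and pericyte, macrophage and nerve genes. Of these, 5 of 6 cardiomyocyte, 4 of 4 macrophage and 3 of 3 nerve markers were above 0. So were 2 of 5 fibroblast, 2 of 4 smooth muscle and pericyte and 0 of 3 atrial markers. The part of these shifts in the Bdh1 difference was not tested. In tissue RNA, fewer cells of a type and less RNA per cell cannot be told apart.

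In WntLOF hearts Bdh1 did not follow the ventricle label. It had 174, 37.4 and 155 CPM in WntLOF RV libraries 1, 2 and 3, against 64.7, 101 and 216 CPM in WntLOF LV. The groups overlapped fully, and RV over LV was 2.68, 0.369 and 0.718 in the 3 pairs: higher in RV in the pair whose labels go against Wif1, lower in RV in the other 2. The log2 fold change of Bdh1 in WntLOF RV against WntLOF LV was -0.062 (SE 0.57, 95% interval -1.35 to 1.22), and -0.72 (SE 0.64) without WntLOF LV 1 and WntLOF RV 1. Leaving out 1 library at a time moved it between -0.41 without WntLOF RV 1 and 0.55 without WntLOF LV 3. Averaged over both genotypes, RV against LV was -0.69 (SE 0.40), and -1.02 (SE 0.41) without the 2 doubted WntLOF libraries, where no member was called either.

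**Figure D3:**
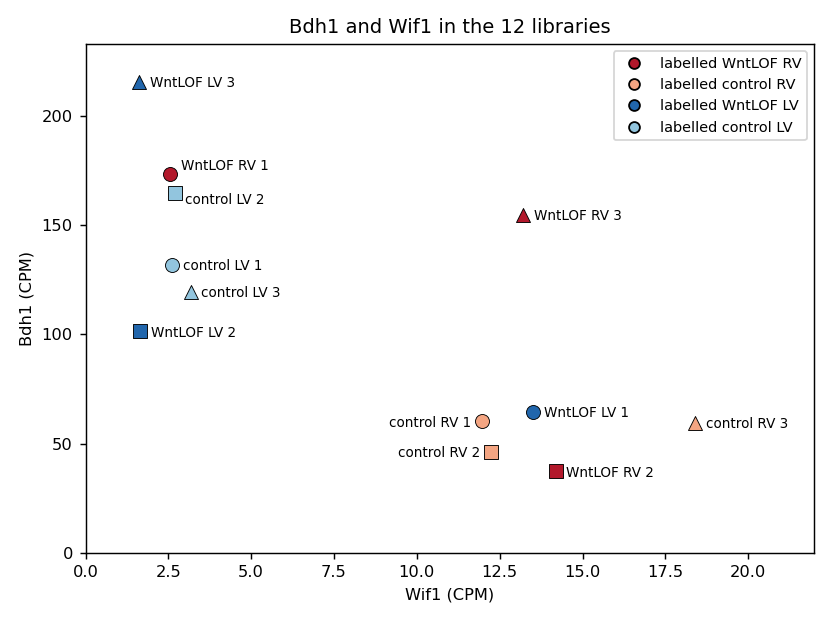
Bdh1 (CPM, vertical axis) against Wif1 (CPM, horizontal axis) in the 12 libraries, coloured by labelled group. The library labelled WntLOF LV 1 lies beside the control RV libraries in both genes and the library labelled WntLOF RV 1 beside control LV 2, and WntLOF RV 3 has 155 CPM of Bdh1 at 13.2 CPM of Wif1.

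Between genotypes the interval of Bdh1 was too wide to place it. In WntLOF RV the mean was 122 ± 73.9 CPM, against 55.4 ± 7.96 CPM in control RV (SD, n = 3 each), with WntLOF RV 1 and 3 above every control RV library and WntLOF RV 2 below every one. In WntLOF RV against control RV the log2 fold change was 1.14 (SE 0.58, 95% interval -0.17 to 2.45), and 0.80 (SE 0.58) without the 2 doubted WntLOF libraries. In the left ventricle the means were 127 ± 78.8 CPM in WntLOF LV and 139 ± 23.4 CPM in control LV (SD, n = 3 each), a log2 fold change of -0.12 (SE 0.57, 95% interval -1.41 to 1.16). That value was 0.19 (SE 0.57) without the 2 doubted WntLOF libraries and -0.73 without WntLOF LV 3, the library with the highest Bdh1. The authors' deposited table gave 0.854 for Bdh1 in the right and -0.456 in the left ventricle, with adjusted p of 0.918 and 0.892. The interaction, the RV against LV difference in WntLOF hearts less that in control hearts, was 1.26 (SE 0.81, 95% interval -0.57 to 3.10), and 0.61 (SE 0.82) without the 2 doubted WntLOF libraries. A loss of the ventricle difference of Bdh1 in WntLOF hearts was therefore not shown by the test of that difference.

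Slc16a1, the ketone body and lactate carrier, was lower in WntLOF RV than in control RV by a small amount, with no overlap between the groups. It had 411, 426 and 399 CPM in WntLOF RV libraries 1, 2 and 3, against 497, 493 and 483 CPM in control RV. Each WntLOF RV library lay below each control RV library, as for 3.94% of tested genes, while 3.61% were higher without overlap. The means were 412 ± 13.5 CPM in WntLOF RV and 491 ± 7.04 CPM in control RV (SD, n = 3 each). The log2 fold change of Slc16a1 was -0.25 (SE 0.083, 95% interval -0.43 to -0.075), with an unadjusted edgeR p of 0.00889, the 48th smallest of 15494. After adjustment over all genes it did not pass, with an adjusted p of 0.99998 by edgeR's quasi-likelihood test. Without the 2 doubted WntLOF libraries the value was -0.25 (SE 0.097), and it was below 0 in all 24 other settings, from -0.28 to -0.23, with no call in any of them. The authors' deposited table gave -0.253 with a p of 0.00697 and an adjusted p of 0.918 for this gene, from the same libraries.

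In the left ventricle the groups overlapped for Slc16a1. It had 468, 442 and 438 CPM in WntLOF LV libraries 1, 2 and 3, against 489, 407 and 448 CPM in control LV. Its fitted log2 fold change was 0.0028 (SE 0.083, 95% interval -0.18 to 0.18), and -0.027 (SE 0.097) without the 2 doubted WntLOF libraries. Between ventricles, Slc16a1 was lower in RV than in LV in 3 of 3 WntLOF pairs, by log2 differences of -0.19, -0.055 and -0.14, and higher in RV in 3 of 3 control pairs, by 0.022, 0.27 and 0.11. The -0.19 is of WntLOF pair 1, whose labels go against Wif1. As labelled, WntLOF RV and WntLOF LV did not overlap, as for 3.7% of tested genes lower in WntLOF RV, while control RV and control LV did. The fitted log2 fold changes were -0.13 (SE 0.083) in WntLOF RV against WntLOF LV, or -0.093 (SE 0.11) without the 2 doubted WntLOF libraries, and 0.13 (SE 0.083) in control RV against control LV. The interaction was -0.26 (SE 0.12), with an unadjusted edgeR p of 0.0472 and an adjusted p of 0.9996. It was -0.23 (SE 0.14) without the 2 doubted WntLOF libraries, and -0.16 (SE 0.14) without the 3 doubted libraries, WntLOF LV 1, WntLOF RV 1 and control LV 2.

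**Figure D4:**
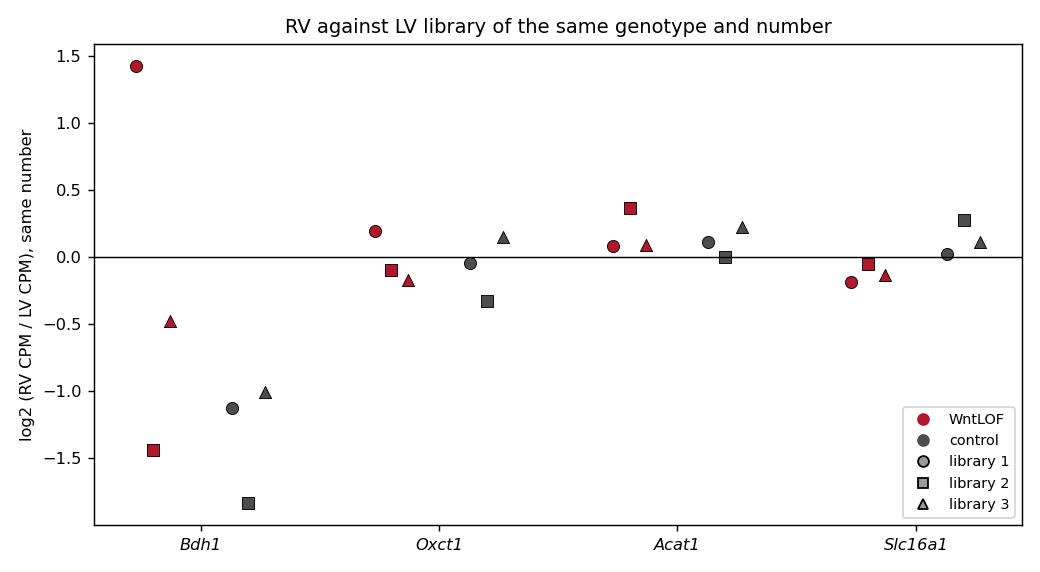
Log2 of RV CPM over LV CPM for the libraries of the same genotype and number, with the number as the symbol. The 3 control points of Bdh1 lie below -1 and the 3 WntLOF points run from -1.44 to 1.42. For Slc16a1 the WntLOF points lie below 0 and the control points above it, with 0.27 the furthest from 0.

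Acat1, the thiolase at the end of the pathway, was slightly lower in WntLOF LV than in control LV. It had 612, 553 and 636 CPM in WntLOF LV libraries 1, 2 and 3, against 673, 674 and 665 CPM in control LV. Each WntLOF LV library lay below each control LV library, as for 3.94% of tested genes, while 3.95% were higher without overlap. The means were 600.5 ± 42.4 CPM in WntLOF LV and 671 ± 5.02 CPM in control LV (SD, n = 3 each), whose libraries were close together. The log2 fold change of Acat1 was -0.16 (SE 0.086, 95% interval -0.35 to 0.026), and 15.6% of tested genes lay further below 0. It was -0.17 (SE 0.099) without the 2 doubted WntLOF libraries and below 0 in all 24 other settings, from -0.19 to -0.10. Among the cell type markers, 5 of 5 endothelial genes were below 0 in WntLOF LV against control LV, with a median of -0.18. Their summed levels were 719 to 905 CPM in WntLOF LV against 905 to 996 CPM in control LV. All 5 were below 0 also without the 2 doubted WntLOF libraries, with a median of -0.077. The 4 macrophage markers were all above 0, with a median of 0.083 and overlapping sums. Above 0 were also 4 of 5 erythroid (median 0.25), 3 of 5 fibroblast (0.17), 2 of 3 atrial and 2 of 3 nerve markers. So were 3 of 6 cardiomyocyte and 1 of 4 smooth muscle and pericyte markers. The 1 adipocyte marker tested was at -0.23. Without the 2 doubted WntLOF libraries 4 of 5 erythroid, 2 of 5 fibroblast and 0 of 3 nerve markers were above 0. The part of these cells in the Acat1 difference was not tested.

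Acat1 was higher in the right ventricle in most pairs. It had 646, 713 and 676 CPM in WntLOF RV libraries 1, 2 and 3, above all WntLOF LV libraries, as for 3.36% of tested genes, and 727, 672 and 775 CPM in control RV, which overlapped control LV. RV was higher than LV in 3 of 3 WntLOF pairs, and in pairs 1 and 3 of the controls, with the control pair 2 at -0.0043 on the log2 scale. These overlaps and pairs are as labelled, and WntLOF pair 1, at 0.079 on the log2 scale, has labels that go against Wif1. Fitted to the model, Acat1 was 0.18 on the log2 scale (SE 0.086) in WntLOF RV against WntLOF LV, or 0.23 (SE 0.11) without the 2 doubted WntLOF libraries, and 0.11 (SE 0.086) in control RV against control LV. Averaged over both genotypes it was 0.14 (SE 0.061, 95% interval 0.012 to 0.28), with an unadjusted edgeR p of 0.0343 and an adjusted p of 0.563, and 0.17 (SE 0.070) without the 2 doubted WntLOF libraries. WntLOF RV against control RV was -0.095 (SE 0.086), or -0.061 (SE 0.099) without the 2 doubted WntLOF libraries.

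Oxct1, the CoA-transferase, was the highest of the 4 per kilobase and overlapped between groups in all 4 comparisons of pairs of groups. It had 1462, 1228 and 1466 CPM in WntLOF RV libraries 1, 2 and 3, against 1379, 1242 and 1475 CPM in control RV. In the left ventricle it had 1281, 1315 and 1648 CPM in WntLOF LV, against 1420, 1556 and 1332 CPM in control LV. The highest of the 12 libraries for Oxct1, WntLOF LV 3, was also the highest for Bdh1, and the lowest, WntLOF RV 2, was also the lowest for Bdh1. The log2 fold changes lay between -0.073 and 0.021 over the 4 comparisons, each with an SE of 0.12. The interval of the difference was -0.23 to 0.28 in WntLOF RV against control RV and -0.28 to 0.23 in WntLOF LV against control LV, so changes within these bounds were not excluded. Without the 2 doubted WntLOF libraries the values were -0.018 and 0.045.

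Of the 16 comparisons of 2 groups over the 4 genes, 5 had groups that did not overlap: Bdh1 in the control ventricles, Slc16a1 and Acat1 once each between genotypes, and both again between the WntLOF ventricles. Over all tested genes and the same 4 comparisons, 8.78% of values had groups that did not overlap, in either direction. With 4 genes picked with earlier results known, nothing is read from the share among them. An exact permutation test of 3 against 3 libraries cannot give a two-sided p under 0.1. Both genotype comparisons and both ventricle comparisons use the same 12 libraries, so they are not independent of each other. Beside the genotype difference in the right ventricle, the summed atrial markers (Myl7, Myl4, Sln and Nppa) had 35.2 to 85.3 CPM in WntLOF RV against 17.0 to 58.1 CPM in control RV, and 3 of 3 tested were above 0. The highest sum, of WntLOF RV 1, was almost all Nppa, at 83.6 CPM. Myl7 and Myl4 were high in WntLOF RV 3 only, at 10.2 and 10.7 CPM. They had 0.0555 and 1.61 CPM in WntLOF RV 1, and 1.26 and 2.58 CPM in WntLOF RV 2. All 4 smooth muscle and pericyte markers were above 0, with a median log2 fold change of 0.20 and a sum of 978 to 1297 CPM in WntLOF RV against 837 to 1067 CPM in control RV. All 5 fibroblast markers were above 0 too, with a median of 0.13 and a sum of 872 to 978 CPM in WntLOF RV against 743 to 1007 CPM in control RV. The 4 macrophage markers were above 0 as well, with a median of 0.12 and a sum of 111 to 136 CPM in WntLOF RV against 102 to 126 CPM in control RV. All 3 nerve markers tested were below 0, with a median of -0.25. Without the 2 doubted WntLOF libraries, 3 of 4 smooth muscle and pericyte, 2 of 5 fibroblast and 4 of 4 macrophage markers were above 0 and 3 of 3 nerve markers below 0. With all libraries the erythroid median was -0.12 with 1 of 5 above 0, the endothelial median -0.031 with 2 of 5 above 0, 3 of 6 cardiomyocyte markers were above 0, and 1 adipocyte marker was tested, at 0.92. Without the 2 doubted WntLOF libraries the erythroid median turned to 0.16 with 4 of 5 above 0. The endothelial median was then -0.155 with 1 of 5 above 0, and 2 of 3 atrial, 3 of 6 cardiomyocyte and 2 of 2 adipocyte markers were above 0. All 9 marker sums overlapped between the groups in this comparison, in WntLOF LV against control LV and in WntLOF RV against WntLOF LV. Their part in the Slc16a1 difference was not tested.

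The other genes of ketone body metabolism were low in these hearts. Of 12 listed, 5 were tested, Aacs, Acat2 and Hcar1 among them. The untested 7 were Hmgcll1, Bdh2, Oxct2a, Oxct2b, Acat3, Hcar2 and Ffar3. None of the 5 passed the adjusted threshold in any comparison, and their median log2 fold change was 0.031 in WntLOF LV against control LV, -0.11 in WntLOF RV against control RV, -0.055 in control RV against control LV and -0.15 in WntLOF RV against WntLOF LV, beside medians over all genes within 0.0039 of 0. The median was -0.12 without the 2 doubted WntLOF libraries in WntLOF LV against control LV, -0.049 in WntLOF RV against control RV and -0.33 in WntLOF RV against WntLOF LV. Aacs, the cytosolic acetoacetyl-CoA synthetase, had 4.77 to 5.55 CPM in WntLOF RV against 5.02 to 6.13 CPM in control RV. Acat2, the cytosolic thiolase, had 3.06, 2.51 and 1.70 CPM in control RV, against 2.47, 2.48 and 3.78 CPM in control LV, with overlapping groups and a log2 fold change of -0.24 (SE 0.29).

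The citrate cycle, which burns the acetyl-CoA that ketone bodies yield, leaned the other way from Bdh1 in control hearts. Of its 17 listed genes, all tested, 15 were above 0 in control RV against control LV, with a median log2 fold change of 0.10, and 51.0% of all genes were above 0. None passed the adjusted threshold. Summed, they had 12495, 12463 and 13892 CPM in control RV libraries 1, 2 and 3, against 12326, 12309 and 12265 CPM in control LV. Control RV 1 and 2 thus lay only slightly above control LV. Suclg1, a subunit of succinyl-CoA ligase, was 0.25 (SE 0.10) and fumarase, Fh1, 0.26 (SE 0.12). In WntLOF RV against WntLOF LV 13 of 17 were above 0 with a median of 0.10, and Idh3g, a subunit of isocitrate dehydrogenase, was 0.39 (SE 0.11). Against control, the medians were -0.020 in WntLOF RV, with 13 of 17 below 0, and -0.026 in WntLOF LV, with 10 of 17 below 0. Without the 2 doubted WntLOF libraries, 12 of 17 were above 0 in WntLOF RV against WntLOF LV with a median of 0.099, Idh3g was 0.50 (SE 0.11), and the medians against control were -0.016 in WntLOF RV and -0.029 in WntLOF LV.

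The genes of leucine and isoleucine breakdown, a route that shares Acat1 and yields acetoacetate from leucine, were higher in sum in control RV. The 11 listed genes had 1718 to 1973 CPM in control RV against 1561 to 1680 CPM in control LV, and 10 of 11 were above 0 with a median log2 fold change of 0.21, though none passed the adjusted threshold. Mccc1, a subunit of methylcrotonyl-CoA carboxylase, was 0.28 (SE 0.10), the mitochondrial branched-chain aminotransferase Bcat2 0.24 (SE 0.094) and the branched-chain ketoacid dehydrogenase subunit Bckdha 0.23 (SE 0.10). In WntLOF RV against control RV 10 of 11 were below 0, with a median of -0.087, while 50.3% of all genes were above 0, and Bckdha was -0.20 (SE 0.10). WntLOF LV against control LV had a median of 0.026, and WntLOF RV against WntLOF LV 0.047, again with no gene passing. Without the 2 doubted WntLOF libraries, 9 of 11 were below 0 in WntLOF RV against control RV with a median of -0.054, and the medians were 0.012 in WntLOF LV against control LV and 0.11 in WntLOF RV against WntLOF LV. Bckdha in WntLOF RV against control RV was then -0.14 (SE 0.12).

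The genes most like each member over the 12 libraries were named by the correlation of log2 CPM, among 12310 genes, as a description of libraries that fall into the same 4 groups. For Bdh1 they included Gm43302 (r = 0.944), Zfp46 (0.919), Plekhh1 (0.915) and Ppfia1 (0.908). Plekhh1 shared the wide range of Bdh1, with 38.7, 5.29 and 18.6 CPM in WntLOF RV, 6.63, 9.72 and 7.96 CPM in control RV, 9.77, 24.8 and 27.8 CPM in WntLOF LV and 26.7, 37.9 and 16.5 CPM in control LV. For Oxct1 they were Hpn (0.938), Spryd4 (0.935), Pdhx, a component of the pyruvate dehydrogenase complex (0.922), Atg101 (0.904) and Twf2 (0.898). For Acat1 they were Hsdl2 (0.943), Tex264 (0.935), Bckdha (0.922), Fkbp8 (0.915) and Flot1 (0.912). For Slc16a1 they were Lrig2 (0.940), Msc (0.896), Has3 (0.874), Arid4b (0.868) and Unc45a (0.866). No member was among the 5 genes most like another member.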

How the data were processed

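The authors deposited raw read counts per Ensembl gene for the 12 libraries. The submitters' processing notes list Subread, featureCounts and edgeR. No genome build, strand setting, version or step done by each tool is given in the sources used here, so reads of overlapping or antisense genes cannot be told apart. Of 41192 entries, 598 repeated a gene with equal counts and were left out. The authors also deposited, per the file headers, 2 tables of WntLOF against control with log2 fold changes, p-values, fold ratios and log2 CPM per library, of which the log2 fold changes and p-values of the members are quoted.

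Counts were analysed in R 4.3.3, with edgeR 4.0.16 for the main model and DESeq2 1.42.0 beside it. After filterByExpr by group and TMM scaling (factors 0.961 to 1.04), a robust quasi-likelihood model with 1 mean per group was fitted to all 12 libraries. The Benjamini-Hochberg adjustment ran over 15494 genes, with a threshold of 0.05. Intervals are 95% intervals from the model's own degrees of freedom. CPM are TMM-normalised, and CPM per kb uses exon lengths from GENCODE on GRCm38. The main edgeR model was tested on simulated counts in every comparison except the averaged RV against LV. The other settings and computations were not tested in this way.

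All 4 members are named in every comparison. From each companion list up to 4 genes with the smallest unadjusted p are named, with Bsg and Ppargc1a whatever their values, and for likeness the 5 genes with the highest correlation. Some genes that this rule takes are not reported here. Members and lists were chosen with earlier results of these data known. Wif1, Myl7, Ddx3y and Ctnnb1 were picked after their values were seen.

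Equal numbers were taken to pair the RV and LV libraries of a genotype, since the deviations of same-numbered libraries from their group means correlated over 0.1 in every pair (0.191 to 0.594 in WntLOF, 0.290 to 0.517 in controls). In WntLOF differently numbered libraries did so too, RV 2 with LV 1 (0.201) and RV 1 with LV 2 (0.133), so these values do not single out pairs 1 and 2 there. Between genotypes not every pair did (-0.0904 to 0.306). Number 3 with number 3 gave 0.233 in LV and 0.306 in RV there, where the libraries cannot be of the same heart. In every group number 3 alone held Y-linked Ddx3y reads. For 0.594 in WntLOF and 0.517 in controls, both of number 3, a shared heart and shared sex cannot be told apart. Alternatives covered scaling, filters, DESeq2, the libraries in the fit, the library number as a block, a term for Y-linked reads, the doubted libraries and each library in turn.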

Additional observations from a re-analysis of the deposited data

How the results depend on the processing

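No setting called a member in any comparison except control RV against control LV, where 1 member, Bdh1, was called with the control libraries alone and 1, Bdh1, without control pair 2 with the replicate block, a fit added after the data were seen. Of 568 recomputed log2 fold changes of members, 518 kept the direction of the planned model and 50 turned it, all of them among values that no setting called. The cause was not tested. With total counts in place of TMM, Oxct1 was 0.011 in WntLOF LV against control LV and Slc16a1 -0.036 in the averaged RV against LV. With a term for Y-linked reads Bdh1 was 0.0053 in WntLOF RV against WntLOF LV. Without control pair 2 and with the replicate block Oxct1 was 0.051 in control RV against control LV.

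Without the doubted WntLOF pair (LV 1 and RV 1), the values that turned were 0.19 for Bdh1, 0.045 for Oxct1 and -0.027 for Slc16a1 in WntLOF LV against control LV, and for Oxct1 -0.018 in WntLOF RV against control RV and -0.063 in the interaction. Without control LV 2, they were 0.018 for Bdh1, 0.043 for Oxct1 and -0.057 for Slc16a1 in WntLOF LV against control LV, -0.034 for Slc16a1 in the averaged RV against LV and -0.019 for Oxct1 in the interaction. Without all 3 they were 0.33 for Bdh1, 0.11 for Oxct1 and -0.092 for Slc16a1 in WntLOF LV against control LV, -0.018 for Oxct1 in WntLOF RV against control RV, -0.014 for Slc16a1 in the averaged RV against LV and -0.12 for Oxct1 in the interaction.

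Leaving out 1 library at a time turned some values. WntLOF LV against control LV ran from -0.73 to 0.19 for Bdh1, -0.13 to 0.044 for Oxct1 and -0.057 to 0.074 for Slc16a1, and WntLOF RV against control RV from -0.037 to 0.10 for Oxct1. WntLOF RV against WntLOF LV ran from -0.41 to 0.55 for Bdh1 and -0.095 to 0.082 for Oxct1. The averaged RV against LV ran from -0.085 to 0.0029 for Oxct1 and -0.034 to 0.031 for Slc16a1, and the interaction from -0.019 to 0.16 for Oxct1.

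Counts of called genes over the whole table moved more. Control RV against control LV had 0 in the planned model, 0 with the replicate block over all 12 libraries, 9 with the control libraries alone, 326 with those and the replicate block, 67 of that kind without control pair 2, 1 with the control libraries alone less control LV 2, and 2 in the model of the other 10 libraries without the doubted WntLOF pair. The averaged RV against LV had 0 in the planned model, 11 with DESeq2, 22 without the doubted WntLOF pair, 8 without all 3 doubted libraries and 4 without WntLOF RV 1. The other 4 comparisons had at most 2 in any setting. In that planned model edgeR passed 312 to 1285 genes per comparison at an unadjusted p under 0.05, and DESeq2 215 to 1231. The replicate block changed no other call of a member, with Bdh1 at -1.32 and an adjusted edgeR p of 0.590 in control RV against control LV. With 3 libraries a group, the intervals of Oxct1, Acat1 and Slc16a1 were narrow and those of Bdh1 between 2 groups spanned more than 2 log2 units.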

Other observations

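The partners and relatives of the carrier MCT1 were uneven in level. Basigin (Bsg), the membrane chaperone that brings MCT1 to the cell surface, had 959 to 1450 CPM over the 12 libraries and averaged 678 CPM per kb. The other lactate carriers were far lower, with Slc16a3 (MCT4) at 4.34 to 6.51 CPM and Slc16a7 (MCT2) at 2.50 to 5.19 CPM. Of the 7 listed partners and relatives 6 were tested and none passed the adjusted threshold. Bsg was 0.25 (SE 0.13) on the log2 scale in WntLOF RV against WntLOF LV and 0.13 (SE 0.13) in WntLOF RV against control RV, where Slc16a1 itself was -0.25. The list's median log2 fold change was -0.11 in WntLOF LV against control LV, 0.057 in WntLOF RV against control RV, -0.099 in control RV against control LV and -0.070 in WntLOF RV against WntLOF LV. Without the doubted WntLOF pair (LV 1 and RV 1) it was -0.028 in WntLOF LV against control LV, 0.17 in WntLOF RV against control RV and -0.039 in WntLOF RV against WntLOF LV, with Bsg at 0.31 (SE 0.17) in the last of these and 0.19 (SE 0.15) in WntLOF RV against control RV.

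Of 8 listed regulators of oxidative metabolism, all tested, none passed the adjusted threshold either. The coactivator Ppargc1a had 138, 196 and 171 CPM in WntLOF RV, against 156, 215 and 165 CPM in control RV. In the left ventricle it had 162, 194 and 144 CPM in WntLOF LV, against 152, 136 and 148 CPM in control LV. Its log2 fold change in control RV against control LV was 0.30 (SE 0.15). The nuclear receptor Esrra was 0.20 (SE 0.085) in WntLOF LV against control LV and -0.18 (SE 0.085) in WntLOF RV against WntLOF LV, and Ppara was -0.24 (SE 0.12) in WntLOF RV against control RV. The medians of the list were 0.091 in WntLOF LV against control LV, -0.031 in WntLOF RV against control RV, 0.061 in control RV against control LV and -0.090 in WntLOF RV against WntLOF LV. Without the doubted WntLOF pair they were 0.074 in WntLOF LV against control LV, -0.014 in WntLOF RV against control RV and -0.078 in WntLOF RV against WntLOF LV, with Esrra at 0.16 (SE 0.094) in WntLOF LV against control LV and Ppara at -0.27 (SE 0.14) in WntLOF RV against control RV.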
